A study of Oryza sativa Indica Group with 8 samples.

Results

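The miR156h locus of rice and the SPL transcription factor genes were compared between leaves of an OsPRR37 overexpression line and of its recipient parent. The members were fixed by locus: SDT/OsmiR156h, 8 SPL genes set under miR156 control, and OsSPL9 as an SPL gene without that control. Of these 10 loci, 9 are among the 35961 loci listed in the expression tables. OsSPL7 (LOC_Os04g46580) was not analysed here. The RNA-seq data comprise 2 libraries of the overexpression line (labelled OE, called OE5 in the study) and 2 of Guangluai 4 (GL, an indica variety, labelled WT). OE5 is a single transgenic line made in GL by overexpressing OsPRR37, a circadian clock repressor, and GL itself carries a loss-of-function allele of that gene, so the groups compare excess OsPRR37 with a natural loss of function. The promoter of the transgene is not given in the sources used here. All plants were 15 days old, grown at 28°C under a day of 14 h light and 10 h dark, and the top expanded leaves were taken in the morning.

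MicroRNA156 marks the juvenile phase of plants. It base-pairs with the messenger RNAs of most SPL (SQUAMOSA promoter-binding protein-like) genes, which leads to their cleavage and to less translation. SPL proteins bind DNA through the SBP domain and control tillering, panicle branching, grain shape and the change from juvenile to adult leaves. In rice, more miR156 gives more tillers and shorter plants, and OsSPL14 (IPA1, also called WFP) is the best known target. The libraries were made from poly(A) RNA, so reads at the OsmiR156h locus are taken to come from its primary transcript. Whether transcripts that overlap the locus add to them was not tested. Mature miR156, SPL protein and the cleavage of SPL transcripts were not measured. The tissue was taken from the labels, because the sources pair no leaf marker with a locus.

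The counts on genes summed to 47685773 and 48284992 in the OE5 libraries and to 43423801 and 45708220 in the GL libraries. Values are given as TPM (transcript abundance scaled to gene length and to the library total, as deposited) for levels. Differences are log2 fold changes of counts from edgeR's quasi-likelihood test with TMM normalization, which scales libraries so that most genes do not move. The scales differ. Over those of the 19280 genes tested that had reads in GL, the median log2 ratio of OE5 to GL was 0.15 in TPM. In TMM-normalized CPM (counts scaled to library size, not to length) it was -0.0062. A gene was called when its adjusted p was under 0.05 and its fold change over 1.5. By that rule 3.39% of the genes tested were called (653), 2.11% higher and 1.28% lower in OE5. That number rested on the error estimate from so few libraries, and was 192 without OE5-1, 221 without OE5-2, 1270 without GL-1 and 1036 without GL-2.

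SDT/OsmiR156h was the only member whose transcript passed the test, and it rose in OE5. The study had already listed this locus as differentially expressed in the same libraries, so the call is not independent of that result. The locus LOC_Os06g44034 on chromosome 6 yields the precursor of miR156h, and an allele with raised expression gives semi-dwarf, high-tillering rice. It had 46.1 and 44.9 TPM in OE5, against 27.6 and 24.2 TPM in GL. Both OE5 libraries lay above both GL libraries, and the difference of the means was larger than the gap between replicates of either genotype. The corresponding counts were 5361 and 5325 in OE5 and 3008 and 2705 in GL. The log2 fold change was 0.65 (standard error 0.11, 95% interval 0.40 to 0.90, adjusted p = 0.0133 from edgeR), or 1.57-fold with an interval from 1.32 to 1.87. On the TPM scale the ratio was 1.76. The call was lost without OE5-1 (log2 fold change 0.62, adjusted p = 0.199 from edgeR) and without OE5-2 (0.68, adjusted p = 0.142 from edgeR), while without a GL library it remained. The fold change lay just past the limit of 1.5, and its interval reached below it. In bulk leaf tissue, more cells that express a gene and more RNA per cell cannot be told apart.

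None of the 5 miR156-controlled SPL genes that passed the filter on low values was called, against 3.39% of all genes tested. The filter required a TPM sum of at least 2 over the libraries of OE5 or of GL. It kept OsSPL3, OsSPL12, OsSPL14, OsSPL2 and OsSPL13 and left out OsSPL16 and OsSPL17. None of the 5 had an unadjusted p under 0.05 with edgeR, a value reached by 15.2% of all genes tested, and DESeq2 and limma-trend called none of them either. All 5 had a log2 fold change above 0 with edgeR, as did 48.9% of all genes tested, and for OsSPL3 the sign turned without OE5-1. The median of the 5 was 0.37, against -0.0059 over all genes tested. The members were chosen with earlier results known, so no test was made of them as a group.

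**Figure D1:**
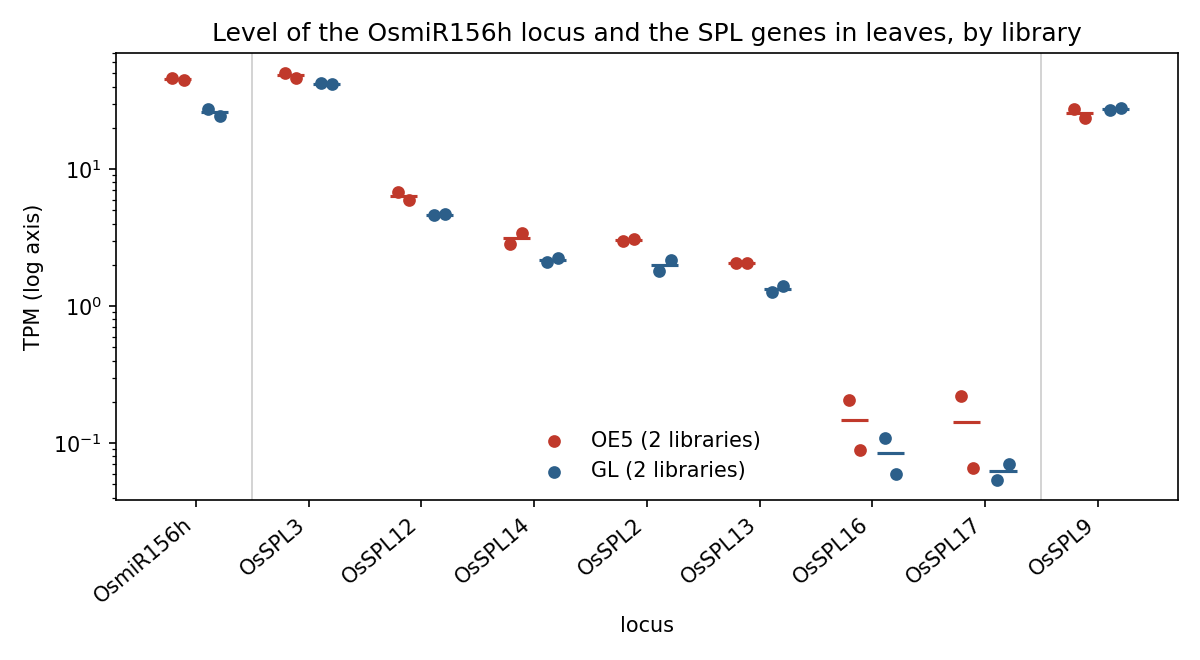
TPM of the 9 listed loci on a log axis, with a point per library and a bar at the mean of the 2 libraries of OE5 (left) and GL (right). The OsmiR156h locus sits at 46.1 and 44.9 TPM in OE5, above 27.6 and 24.2 TPM in GL, while OsSPL16 and OsSPL17 lie far below the other SPL genes in both genotypes.

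OsSPL14 (LOC_Os08g39890, chromosome 8) restrains tillering and promotes panicle branching, and mutations in its miR156 site underlie the ideal plant architecture trait. It had 2.85 and 3.43 TPM in OE5, against 2.08 and 2.23 TPM in GL. Both OE5 libraries were above both GL libraries. The counts behind these levels were 210 and 258 in OE5 and 144 and 158 in GL. Its log2 fold change was 0.37 (standard error 0.19, 95% interval -0.07 to 0.81, adjusted p = 0.424 from edgeR). The interval spans folds from 0.956 to 1.76, so it holds both no difference and a rise past the limit of 1.5, but no fall beyond its lower bound. Without OE5-2 the log2 fold change of OsSPL14 was 0.24.

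OsSPL13 (LOC_Os07g32170, chromosome 7), also known as GLW7, promotes grain length and weight. It had 2.05 and 2.06 TPM in OE5, against 1.27 and 1.41 TPM in GL. The OE5 libraries were nearly equal and both lay above GL. Its log2 fold change was 0.44 (standard error 0.23, 95% interval -0.08 to 0.97, adjusted p = 0.428 from edgeR). Only 129 and 132 counts in OE5 and 75 and 85 counts in GL stand behind it, and its interval was the widest of the tested members.

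OsSPL2 (LOC_Os01g69830, chromosome 1) is a less studied SPL gene. It had 3.004 and 3.11 TPM in OE5, against 1.82 and 2.18 TPM in GL. Again the OE5 libraries lay above those of GL. Its log2 fold change was 0.44 (standard error 0.20, 95% interval -0.02 to 0.90, adjusted p = 0.348 from edgeR). This was the smallest adjusted p among the tested SPL genes. Without GL-2 its log2 fold change was 0.63, and without GL-1 it was 0.30, which shows how far its size rested on single GL libraries.

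OsSPL3 (LOC_Os02g04680, chromosome 2) and OsSPL12 (LOC_Os06g49010, chromosome 6) are close relatives, and OsSPL3 acts in crown root development in rice. OsSPL12 had 6.81 and 5.95 TPM in OE5, against 4.59 and 4.74 TPM in GL. The genotypes did not overlap. Its log2 fold change was 0.29 (standard error 0.15, 95% interval -0.04 to 0.62, adjusted p = 0.411 from edgeR), and 0.18 without OE5-1.

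OsSPL3 had 50.02 and 46.5 TPM in OE5, against 42.6 and 41.5 TPM in GL. In TPM the genotypes did not overlap, but in TMM-normalized CPM they did, with 84.3 and 77.4 in OE5 and 77.6 and 79.9 in GL. Its log2 fold change was 0.04 (standard error 0.11, 95% interval -0.21 to 0.28, adjusted p = 0.928 from edgeR). With at least 3337 counts per library, OsSPL3 had one of the narrowest intervals, which spans folds from 0.865 to 1.22 and so leaves out a change of 1.5-fold in either direction. With a library left out, its log2 fold change ranged from -0.025 without OE5-1 to 0.097 without OE5-2.

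OsSPL16 (LOC_Os08g41940, chromosome 8; GW8) controls grain width, and OsSPL17 (LOC_Os09g31438, chromosome 9) acts with OsSPL14 in panicle branching. Both were near the limit of detection in leaves. OsSPL16 had 18 and 8 counts in OE5 and 9 and 5 counts in GL, at 0.205 and 0.0893 TPM in OE5 and 0.109 and 0.0593 TPM in GL. The genotypes overlapped. Summed over the libraries and scaled for their size, the ratio of OE5 to GL was 1.56, with an exact 95% counting interval from 0.785 to 3.23.

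OsSPL17 had 13 and 4 counts in OE5 and 3 and 4 counts in GL, at 0.220 and 0.0664 TPM in OE5 and 0.0543 and 0.0705 TPM in GL. Its ratio of OE5 to GL was 2.04, with an exact 95% counting interval from 0.804 to 5.82. The OE5-1 library alone held most of the OE5 counts of both genes. Without it the log2 ratio of TMM-normalized CPM was -0.076 for OsSPL16 and -0.085 for OsSPL17. On the TPM scale it was 0.082 for OsSPL16 and 0.090 for OsSPL17, so no direction can be given for either. These intervals cover counting error only. In every library the counts on genes summed to more than the clean read pairs that the study reports. Pairs were therefore counted more than once, as when each mate counts, and these intervals are likely too narrow.

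OsSPL9 (LOC_Os05g33810, chromosome 5), which is not a target of miR156, activates the gene of another microRNA, miR528, in a manner that depends on copper. It had 27.6 and 23.7 TPM in OE5, against 27.0 and 27.9 TPM in GL, so the genotypes overlapped in TPM. In TMM-normalized CPM it had 89.7 and 76.4 in OE5, against 95.2 and 104 in GL, and both OE5 libraries were lower. Its log2 fold change was -0.26 (standard error 0.12, 95% interval -0.53 to 0.02, adjusted p = 0.363 from edgeR), and -0.15 without OE5-2. On the TPM scale the log2 ratio was -0.10, with -0.21 without OE5-1 and 0.0068 without OE5-2. Among all genes tested, 22.5% had both OE5 libraries below both GL libraries in TMM-normalized CPM.

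**Figure D2:**
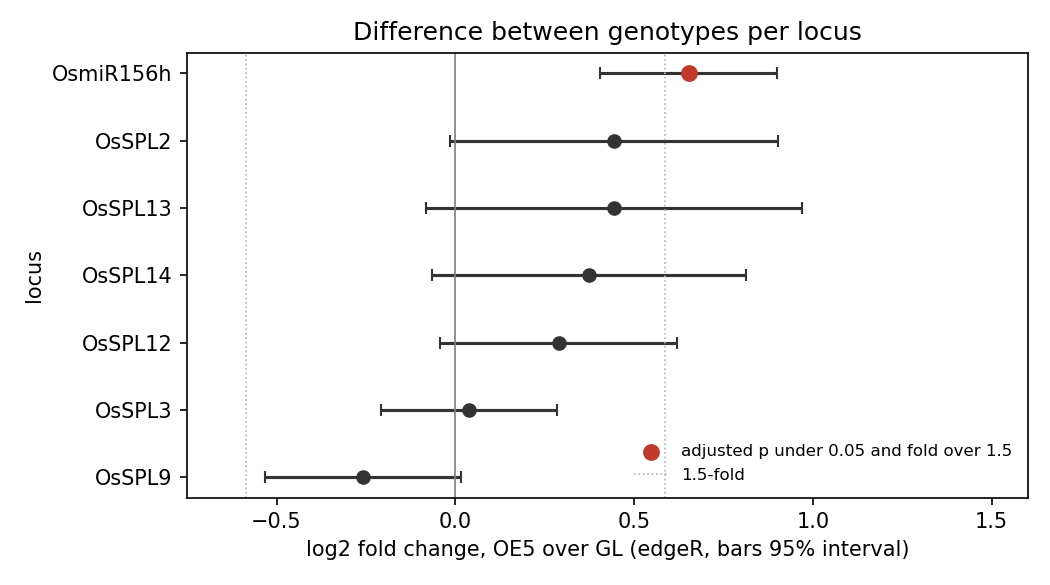
log2 fold change of OE5 over GL for the 7 members past the filter, with 95% intervals from edgeR and dotted lines at 1.5-fold in either direction. The interval of the OsmiR156h locus (0.40 to 0.90) lies above 0, and those of the 6 SPL genes include 0.

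Whether libraries of the genotypes were apart depended on the scale. In TPM all 5 tested miR156-controlled SPL genes and the OsmiR156h locus had both OE5 libraries above both GL libraries, but so had 45.0% of all genes tested. In TMM-normalized CPM the OsmiR156h locus and 4 of the 5 did, all but OsSPL3, against 22.2% of all genes tested. The members apart on both scales were OsmiR156h, OsSPL14, OsSPL13, OsSPL12 and OsSPL2. Their edgeR fold changes ran from 1.22 for OsSPL12 to 1.57 for OsmiR156h, and the largest among the SPL genes was 1.36, for OsSPL13 and for OsSPL2.

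TPM values are per length, so the members can be ranked within a genotype. In OE5 the order was OsSPL3 (48.2 ± 2.52 TPM, SD, n = 2), OsmiR156h (45.5 ± 0.875), OsSPL9 (25.7 ± 2.72), OsSPL12 (6.38 ± 0.608), OsSPL14 (3.14 ± 0.410), OsSPL2 (3.06 ± 0.0771), OsSPL13 (2.05 ± 0.00367), OsSPL16 (0.147 ± 0.0819) and OsSPL17 (0.143 ± 0.109). In GL it was OsSPL3 (42.0 ± 0.748 TPM, SD, n = 2), OsSPL9 (27.5 ± 0.598), OsmiR156h (25.9 ± 2.42), OsSPL12 (4.66 ± 0.106), OsSPL14 (2.16 ± 0.102), OsSPL2 (2.00 ± 0.254), OsSPL13 (1.34 ± 0.0941), OsSPL16 (0.0844 ± 0.0355) and OsSPL17 (0.0624 ± 0.0115). The neighbours whose libraries overlapped were OsSPL14 and OsSPL2 in both genotypes, OsSPL16 and OsSPL17 in both, and OsSPL9 and OsmiR156h in GL. In OE5, OsSPL3 and OsmiR156h were apart by only a small margin. The lower OsSPL3 library had 46.5 TPM, and the higher OsmiR156h library had 46.1 TPM. The OsmiR156h locus was above OsSPL9 in both OE5 libraries and in GL-1, and below it in GL-2. The means of the other members stood in the same order in both genotypes.

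Among the 7 listed miR156-controlled genes, OsSPL3 had most of the transcript abundance. The summed TPM of these genes was 65.2 and 61.2 in OE5, against 52.5 and 52.2 in GL. The size of this rise depended on the scale. In TMM-normalized CPM the sum was 108 and 100 in OE5, against 94.7 and 99.2 in GL. OsSPL3 supplied 76.8% and 76.0% of the summed TPM in OE5 and 81.1% and 79.5% in GL. Without OsSPL3 the sum was 15.1 and 14.7 TPM in OE5 and 9.93 and 10.7 TPM in GL. Together, the other genes thus took a larger share in both OE5 libraries. OsSPL12 was next, with 10.4% and 9.73% in OE5 and 8.74% and 9.08% in GL. OsSPL14 held 4.37% and 5.60% in OE5 and 3.97% and 4.27% in GL. The SPL gene best known for plant architecture was therefore a minor part of this sum.

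The ratio of OsSPL3 to OsSPL12 in TPM, which does not depend on scaling between libraries, was 7.35 and 7.81 in OE5, against 9.28 and 8.76 in GL. It was lower in both OE5 libraries. The ratio of OsSPL14 to OsSPL13 was 1.39 and 1.67 in OE5 and 1.64 and 1.58 in GL, and overlapped.

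A ratio within a library also shows how the OsmiR156h transcript stood against each SPL gene. All these ratios share the OsmiR156h value, so they are not separate evidence, and each restates in part that this locus rose. With OsSPL9 as the denominator the ratio of TPM values was 1.67 and 1.89 in OE5, against 1.02 and 0.868 in GL. With OsSPL3 it was 0.922 and 0.966 in OE5, against 0.649 and 0.584 in GL. With OsSPL12 it was 6.78 and 7.55 in OE5, against 6.02 and 5.11 in GL. In these 3 ratios the genotypes did not overlap. How many of all genes would give such a separation was not counted.

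With OsSPL13 the ratio was 22.5 and 21.8 in OE5, against 21.7 and 17.2 in GL, a separation by a small margin. With OsSPL14 it was 16.2 and 13.1 in OE5, against 13.3 and 10.9 in GL, and the genotypes overlapped. With OsSPL2 it was 15.4 and 14.4 in OE5, against 15.2 and 11.1 in GL, again with overlap. The denominators were also higher in OE5, with TPM ratios of OE5 to GL of 1.53 for OsSPL13, 1.45 for OsSPL14 and 1.53 for OsSPL2. For OsSPL13 and OsSPL2 the difference between the genotype means of the ratio was smaller than the gap between the GL libraries. For OsSPL14 it was smaller than the gap between the OE5 libraries and slightly larger than that between the GL libraries.

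On the scale of log2(TPM + 1), the ratio of OsmiR156h to OsSPL9 was 0.89 higher in OE5 than in GL (pooled SD 0.14), that to OsSPL3 was 0.60 higher (pooled SD 0.081) and that to OsSPL12 was 0.41 higher (pooled SD 0.13). The differences were 0.41 for OsSPL13, 0.40 for OsSPL14 and 0.35 for OsSPL2, with pooled SDs of 0.13, 0.17 and 0.18. The pseudocount of 1 pulls the low genes together, and with it the OE5 and GL libraries were apart for these genes too. With a pseudocount of 0.1 the differences were smaller, at 0.23 for OsSPL13, 0.30 for OsSPL14 and 0.22 for OsSPL2. With the pseudocount of 1, each of the 8 ratios, 1 for each listed SPL gene, had a two-sided exact permutation p of 0.333. That is the smallest that 2 libraries against 2 allow, so this test cannot show a difference. Benjamini-Hochberg adjustment over the 8 leaves it the same.

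**Figure D3:**
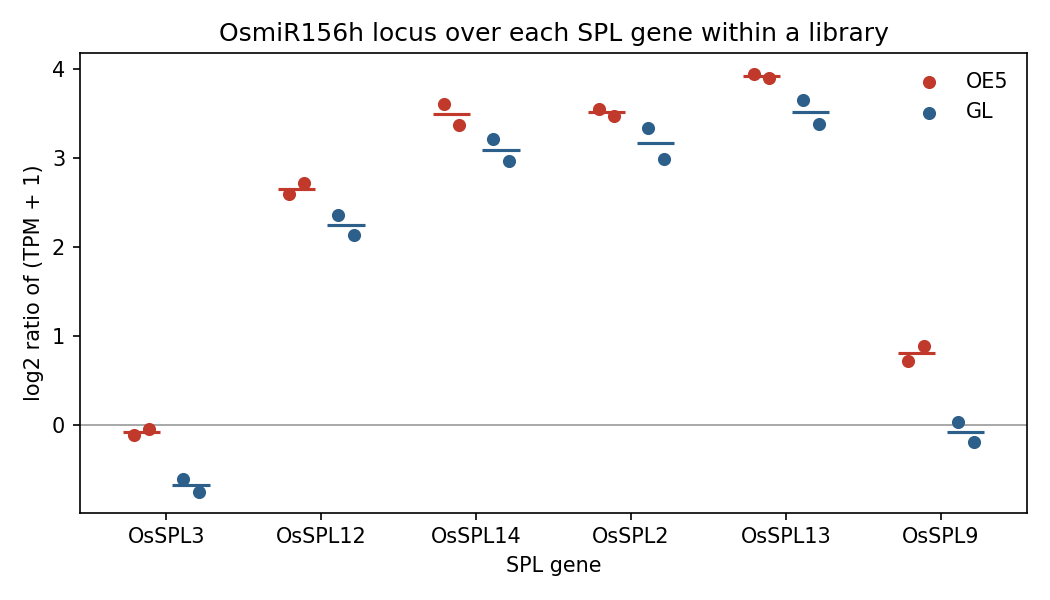
log2 ratio of TPM + 1 of the OsmiR156h locus over each of the 6 SPL genes past the filter, with a point per library and a bar at the mean of OE5 (left) and GL (right). The gap between genotypes is 0.89 for OsSPL9 and 0.60 for OsSPL3 and smaller, from 0.35 to 0.41, for OsSPL12, OsSPL13, OsSPL14 and OsSPL2.

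Of the genes downstream in the flowering pathway, the study names OsMADS18 (LOC_Os07g41370) by locus. It encodes a MADS-box factor of the AP1/FUL group, and relatives of it in Arabidopsis are direct targets of SPL proteins. It had 7.91 and 7.85 TPM in OE5, against 11.3 and 10.8 TPM in GL. It fell in OE5, and the study had already listed it as differentially expressed in the same libraries. The log2 fold change was -0.65 with a standard error of 0.11 (edgeR, adjusted p = 0.0148), a call lost without OE5-1 (adjusted p = 0.168 from edgeR), without OE5-2 (adjusted p = 0.176 from edgeR) and with limma-trend on TPM values (adjusted p = 0.0975). No link between this gene and the SPL genes was tested.

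**Figure D4:**
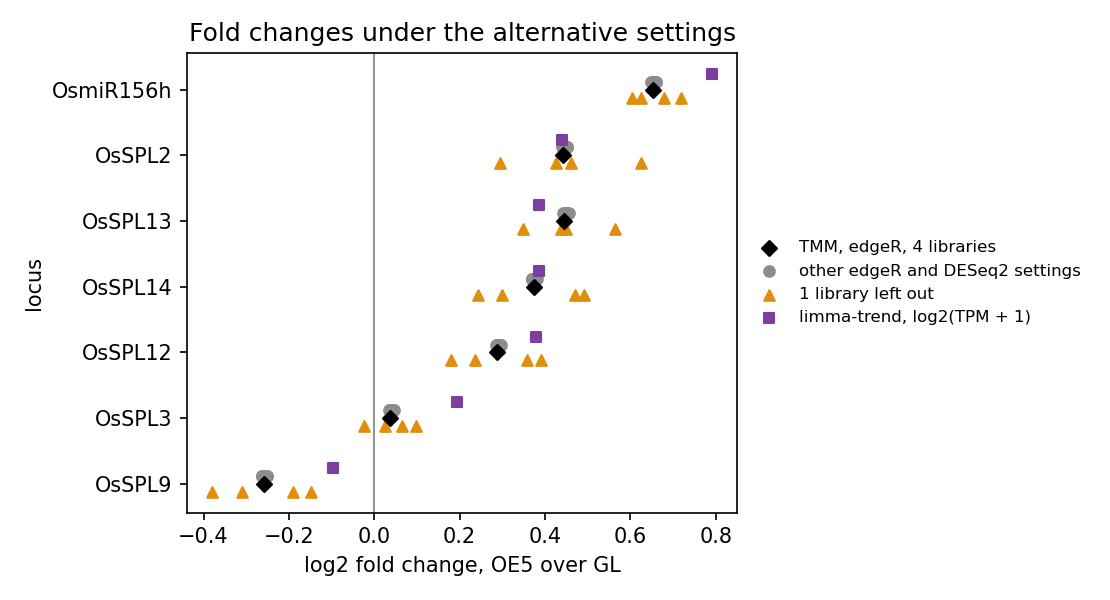
log2 fold change of OE5 over GL for the 7 members past the filter under every setting tried (diamonds, all 4 libraries with TMM and edgeR; circles, other edgeR and DESeq2 settings; triangles, 1 library left out; squares, limma-trend on log2(TPM + 1)). The OsmiR156h locus stays between 0.60 and 0.79, and OsSPL3 has the only values on both sides of 0.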

How the data were processed

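The authors trimmed reads with fastp 0.20.1, mapped them with HISAT2 2.1.0 to the Nipponbare genome (MSU_v7.0) and ran TPMCalculator. They deposited raw read counts per MSU locus, without normalization, and TPM values, scaled to gene length and library total. Handling of strand, multi-mapped reads and overlapping genes is not given in the sources used here, so close SPL paralogs and transcripts that overlap the OsmiR156h locus are uncertain. Names of the members came with the choice of loci, since 0 rows of the RefSeq table (assembly ASM3414082v1) carry a member locus. No sequences were used. The overexpressed gene is not reported here, because no source pairs its name with a locus.

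The main test used edgeR 4.0.16 in R 4.3.3 (TMM, estimateDisp and glmQLFit with robust = TRUE, prior count 2, glmQLFTest) over the 19280 of 35961 loci with a TPM sum of at least 2 in OE5 or GL, with Benjamini-Hochberg adjustment over all of them. The standard error was obtained by dividing the size of a log2 fold change by the root of its F statistic. Intervals are at 95%. DESeq2 1.42.0, which the authors used, and limma 3.58.1 were alternatives. The tests were also run on simulated data with 200 changed genes, and the outcome is not reported here. Replicates differed by more than sampling noise, with a chi-square of 51.5 (OE5) and 173 (GL) for each degree of freedom. The study calls them biological, and the labels do not say whether they are separate plants. Named genes are the members and OsMADS18. The other SPL genes, leaf markers and OsPRR37 of the fixed lists were left out, because no source pairs them with a locus. The members and lists were chosen with earlier results of these data known. The 4 bisulfite samples were not analysed here.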

Additional observations from a re-analysis of the deposited data

How the results depend on the processing

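The alternatives were RLE and upper-quartile factors, DESeq2, limma-trend on log2(TPM + 1), filterByExpr, no filter, the TPM filter in both genotypes, halved counts, a replicate block, a crossed pairing (chosen after seeing the data) and each library left out. With a library left out, the lone library of its genotype is taken to vary like the other genotype. The OsmiR156h locus was called under all of them except without OE5-1 or OE5-2, with log2 fold changes from 0.60 to 0.72 with a library left out. No SPL gene was called under any, and all 6 tested ones kept their direction except OsSPL3 without OE5-1. With a library left out the log2 fold change of OsSPL3 ranged from -0.025 to 0.097. The log2 ratio of TMM-normalized CPM ranged from -0.076 to 1.14 for OsSPL16 and from -0.085 to 1.66 for OsSPL17. Each reversed without OE5-1, but OsSPL16 and OsSPL17 did not reverse on the TPM scale. The log2 ratio of mean TPM of OsSPL9 ranged from -0.21 without OE5-1 to 0.0068 without OE5-2, a reversal. OsSPL16 and OsSPL17 could be tested only with no filter (adjusted p = 0.838 for both, from edgeR).

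The number of genes called was 653 and ranged from 192 to 1270 with a library left out (142 to 761 higher, 50 to 509 lower). With no filter it was 1207, 776 higher and 431 lower. With limma-trend 98 were lower, and the share higher was 83.1%, against 62.3% with edgeR. With the replicate block 708 genes were called, and the OsmiR156h locus had an adjusted p of 0.0278 from edgeR. Same-numbered libraries had deviations with r = 0.135 and rho = -0.139 across genes, so the numbers are not shown to pair libraries. The crossed pairing called 751.

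With a pseudocount of 0.1, the OE5 minus GL difference of the log2 ratio of OsmiR156h was 0.23 to OsSPL13 and 0.30 to OsSPL14. To OsSPL2 it was 0.22, to OsSPL16 0.42 and to OsSPL17 0.30. The log2 ratio of the summed TPM of the miR156-controlled SPL genes, OE5 over GL, was 0.27. It was 0.10 as TMM-normalized CPM, 0.53 without OsSPL3 and from 0.22 to 0.32 with a library left out. At most 18 counts per library limit what can be said of OsSPL16 and OsSPL17.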
